A study of Mus musculus with 15 samples.

Results

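The mitochondrial ribosome translates the few messages of the mitochondrial genome, which encode membrane subunits of the respiratory chain. Its ribosomal RNAs come from the mitochondrial genome, whereas all of its proteins are encoded in the nucleus, made in the cytosol and imported. Small subunit proteins (gene symbols Mrps) surround the decoding site, and large subunit proteins (Mrpl) surround the site of peptide bond formation and the exit tunnel. A growing oocyte accumulates mitochondria and the messages for their upkeep, which the embryo inherits. The genes described here are the protein-coding genes whose symbol begins with Mrpl or Mrps followed by a number. They number 78 of the 55401 genes in the files, 29 of them Mrps and 49 Mrpl. All 78 passed the filter on low counts, which kept 21009 genes. A further 5 matching symbols are processed pseudogenes (of Mrps36, Mrpl23 and Mrpl48) and were not members. Reads of those 3 parent genes could be shared with the copies. A symbol does not always give the place of a protein: Mrps18a and Mrps30 sit in the large subunit, and Mrps36 is now counted as a part of the 2-oxoglutarate dehydrogenase complex.

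RNA was measured in 15 libraries, each of 6 oocytes at the germinal vesicle stage, from Kunming mice. Oocytes of antral follicles grown in vivo (label Invivo, here IVV; the methods do not say which of the mouse ages they name applies to these) were set beside oocytes of preantral follicles, dissected from mice 12 to 14 days old and grown in vitro for 10 days without NT-4 (C_10d, here IVG) or with NT-4 (NT_10d, here IVG-NT), and for 6 days without (C_6d, IVG day 6) or with it (NT_6d, IVG-NT day 6). NT-4 is neurotrophin-4, a ligand of the TRKB receptor. Each group has 3 libraries, the labels give 1 strain and no genotype, and they number the IVV libraries 2, 3 and 4. Each library pools its oocytes, and the labels do not say which mice they came from, so p-values measure the spread between these libraries. Library totals ran from 5.95 M to 55.6 M counts. The oocyte markers fit the label: all 12 of 12 (Zp1, Zp2, Zp3, Gdf9 and others) had counts in all 15 libraries. Granulosa cell markers summed to 40.7 to 390 normalized CPM (counts scaled to a common library size by TMM), against 12930 to 23160 for the oocyte markers. By gene they ranged from Amh, with counts in 2 libraries, to Nr5a2 and Gja1, with counts in all 15. Inha and Cyp19a1 had counts in 14 libraries, and Fshr and Hsd17b1 in 13. In pooled oocytes a lower level can mean less of the RNA per oocyte or a smaller share of a larger whole, and these cannot be told apart.

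The libraries were of 2 kinds that ran across the groups. The share of counts on CT010467.1, which is annotated as rRNA, was 12.5% to 37.9% in 9 libraries (rRNA-rich) and 0.187% to 0.714% in the other 6 (rRNA-poor); the limit of 5% was chosen with the shares known. The rRNA-poor ones are IVV replicates 2 and 4 and, from every in vitro group, replicate 3. Among the rRNA-rich libraries, IVG-NT day 6 replicates 1 and 2 stood apart by depth, with 5.95 M and 7.13 M counts, and 25 and 28 of the 78 genes had no count there. A count of 0 at that depth allows up to 0.542 and 0.522 normalized CPM (3 counts; counting error only). Elsewhere a single value was 0, that of Mrpl19 in IVG-NT replicate 1.

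In every group the level of the mitoribosomal protein genes split by the kind of library. Summed over the 78 genes, normalized CPM was 11410 and 11420 in the rRNA-poor IVV libraries, 8453 in that of IVG, 11070 in that of IVG-NT, and 8340 and 8422 in those of IVG day 6 and IVG-NT day 6. In the rRNA-rich libraries the same sum was 2327 in IVV, 2015 and 2142 in IVG, 2327 and 1986 in IVG-NT, 2550 and 2771 in those of IVG day 6, and 2312 and 3829 in those of IVG-NT day 6. The lowest rRNA-poor sum thus lay above the highest rRNA-rich sum, and every group had libraries on both sides. As a share of all counts, the genes took 1.02% to 1.29% in rRNA-poor and 0.173% to 0.309% in rRNA-rich libraries. The genes of both symbols had this form. The Mrps genes summed to 3301 to 5159 normalized CPM in rRNA-poor and 717 to 1592 in rRNA-rich libraries. The Mrpl genes summed to 4681 to 6328 and 1162 to 2236.

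**Figure D1:**
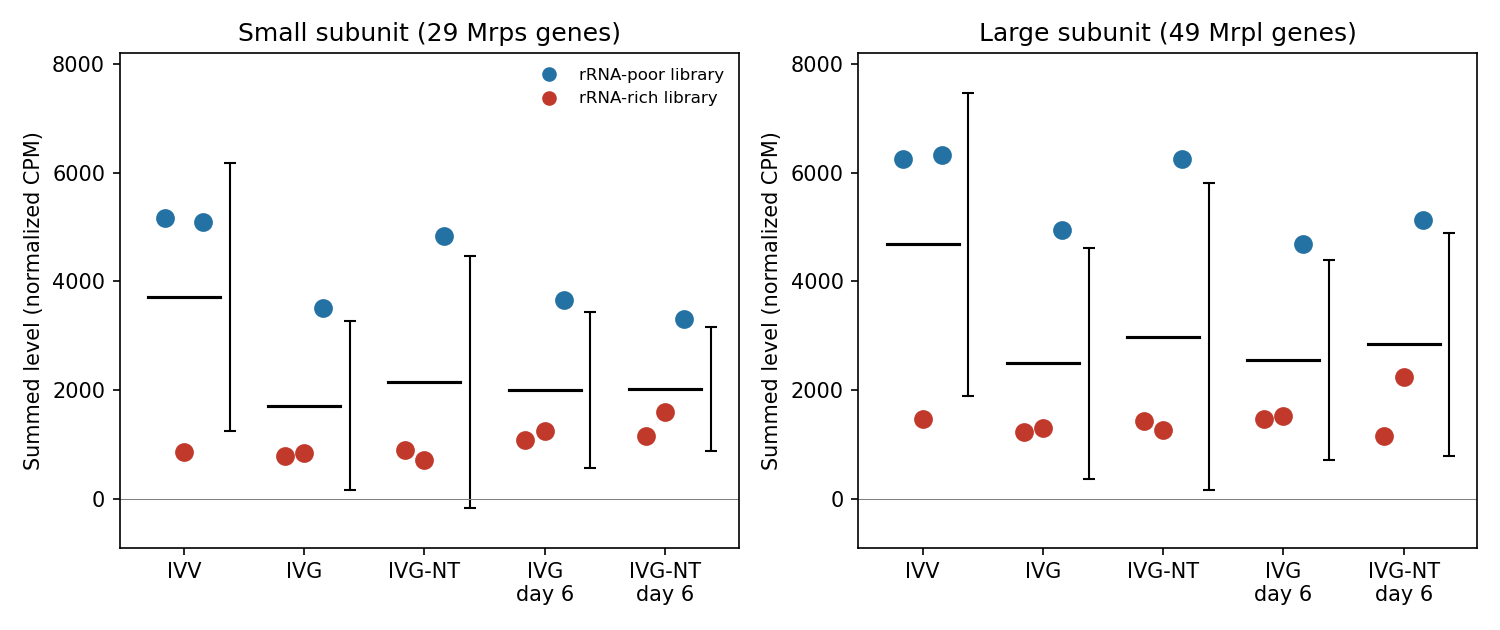
Summed level of the 29 Mrps genes (left) and the 49 Mrpl genes (right), in normalized CPM, for each library by group, with blue points for rRNA-poor and red points for rRNA-rich libraries. Black lines are group means and bars ± SD (n = 3); in each group every blue point is above every red point, and IVV, the group with 2 blue points, has the highest mean.

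Per length, the members spanned a 246-fold range of mean level. FPKM was taken over all annotated exon bases of a gene, and the median of the 78 means over 15 libraries was 19.9 FPKM (20.5 for Mrps, 18.4 for Mrpl). Mrps33, a small subunit protein with no bacterial counterpart, was highest at 286 FPKM on average, with 630 ± 209 FPKM (SD, n = 6) in rRNA-poor and 57.5 ± 44.0 FPKM (SD, n = 9) in rRNA-rich libraries. It lies on the minus strand of chromosome 6 (chr6:39801804-39810988, GRCm38). Next came Mrpl34, with a mean of 201 FPKM, and Mrps21, with 167 FPKM, both with bacterial homologues. The lowest means were 1.17 FPKM for Mrpl19, 1.82 FPKM for Mrps10 and 2.31 FPKM for Mrps30. These 3 genes have many annotated exon bases (5450, 8079 and 6666), and with the longest protein-coding transcript as the length, 2 of the 3 highest and 2 of the 3 lowest genes kept their places among the 3. The order of all 78 by the 2 lengths had a Spearman correlation of 0.879. The top of the order also depended on the kind of library. Mrps33 was the highest member by normalized CPM in all 6 rRNA-poor libraries. In the rRNA-rich libraries the highest was Mrps22, Mrps25, Mrpl9, Mrpl10 or Mrpl12. In most libraries the 5 highest members held 20.7% to 26.7% of the summed level, but they held 42.0% and 47.9% in the shallow IVG-NT day 6 libraries.

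Some counts cannot be assigned with certainty. Whether counting used strand is not given in the sources used here, and 33 of the 78 genes share exon bases with another annotated gene. For 10 of them more than 20% of exon bases are shared, among them Mrpl53 (88.0%, with Ccdc142os and Gm42688), Mrps34 (77.8%, with Mapk8ip3 and Nme3) and Mrps25 (69.8%, with Nr2c2).

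In a fit with group and kind as terms, 51 of the 78 genes were lower in the rRNA-rich libraries at an adjusted p under 0.05 (edgeR's quasi-likelihood test, adjusted over all 21009 genes) and 0 were higher. That is 65.4% of the members, where 15.3% of all genes tested were lower and 8.41% higher. In every in vitro group the rRNA-poor library is replicate 3, so there kind and replicate number cannot be told apart. The fit takes the libraries of each kind as independent, which the labels do not settle. The median log2 difference of the members, rRNA-rich minus rRNA-poor, was -2.41, against -0.54 over all genes tested, and 76 of 78 were negative. The 29 Mrps genes had a median of -2.40 with 17 past the threshold, and the 49 Mrpl genes a median of -2.42 with 34 past it. In 46 of the 78 genes (59.0%) all 9 rRNA-rich libraries lay below all 6 rRNA-poor ones, which held for 10.3% of all genes tested, and the opposite order held for 0 members and 2.88% of all genes tested. With the 2 shallow IVG-NT day 6 libraries left out, the count without overlap was 58 (74.4%), against 13.8% of all genes tested. The same omission raised the members past the threshold from 51 to 65, of which 63 were lower and 2 higher, where 15.4% of all genes tested were lower and 12.9% higher. Without IVG-NT replicate 3, an rRNA-poor library, 33 members passed, all lower, where 5.78% of all genes tested were lower. Markers of other cells moved with kind in part: of the theca and stroma markers tested 2 of 6 were lower in rRNA-rich libraries (summed level 0 to 21.9 normalized CPM, against 2.40 to 28.2), of the macrophage markers 2 of 4 (0 to 55.7, against 33.3 to 64.6), and of the granulosa cell markers 0 of 10 (40.7 to 390, against 41.6 to 265). Their part in the result was not tested.

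**Figure D2:**
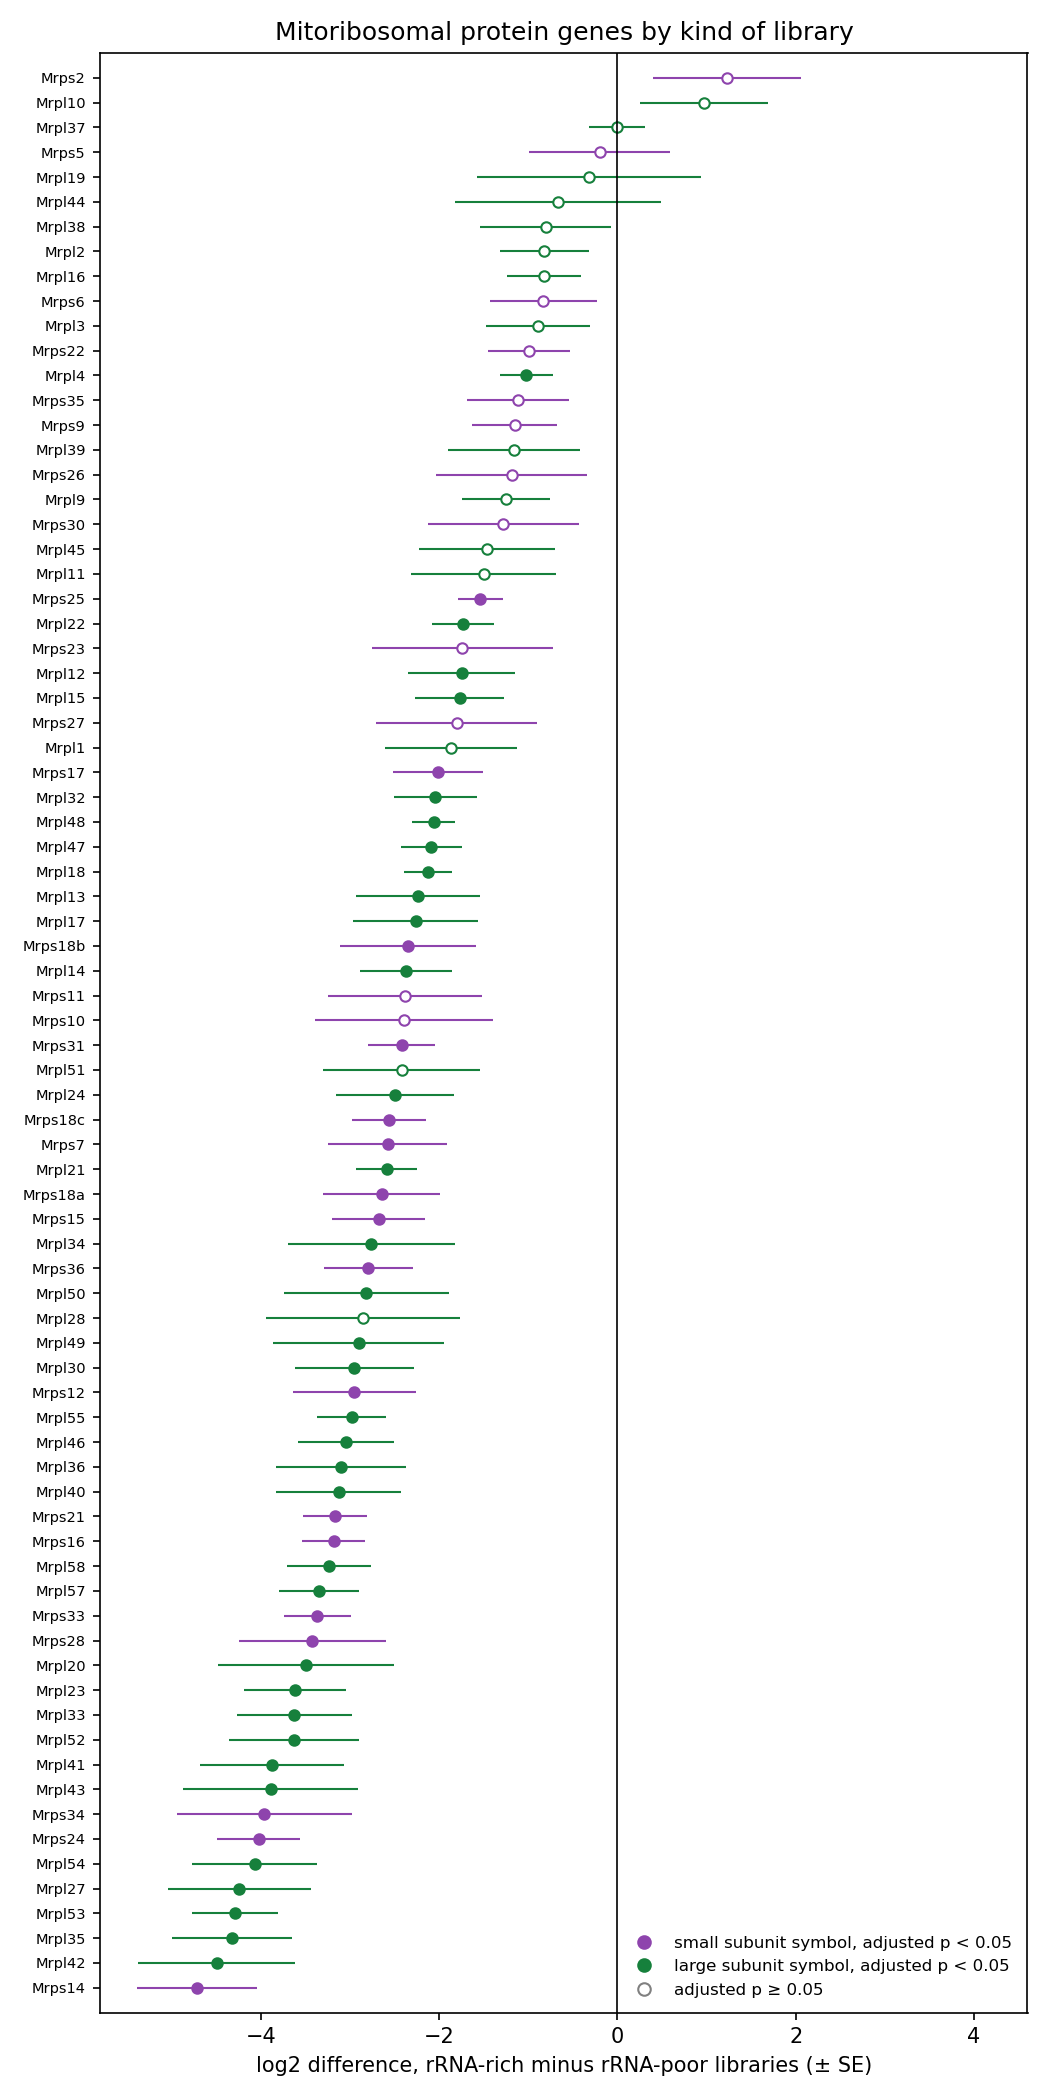
log2 difference between rRNA-rich and rRNA-poor libraries for each of the 78 genes, with its standard error, from the fit with group and kind, ordered by size; filled points have an adjusted p under 0.05 and open points do not. The 51 filled points all lie left of 0, purple (Mrps) and green (Mrpl) points are mixed along the order, and Mrpl10 and Mrps2 lie right of 0.

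Over all libraries the most negative difference was that of Mrps14, a small subunit protein of the ribosome's head with a bacterial homologue (chr1:160195215-160202170, plus strand). Its level was 188 to 529 normalized CPM, with a median of 303, in rRNA-poor and 0 to 31.8, with a median of 21.5, in rRNA-rich libraries, and the kinds did not overlap. It was 26.2-fold lower in rRNA-rich libraries (log2 difference -4.71, SE 0.67, adjusted p = 0.000264). Mrpl42, a protein particular to mitochondrial ribosomes, had 111 to 226 normalized CPM in rRNA-poor and 0 to 48.8 in rRNA-rich libraries, both shallow libraries being at 0 (-4.50, SE 0.88, adjusted p = 0.00262). Mrpl35, a large subunit protein with a bacterial homologue, had 258 to 472 normalized CPM in rRNA-poor and 0 to 52.8 in rRNA-rich libraries (-4.32, SE 0.67, adjusted p = 0.000498). Without the 2 shallow libraries the 3 log2 differences were -3.89, -3.50 and -3.59, and the most negative were then those of Mrpl53 (-4.42), Mrpl54 (-4.36), Mrpl23 (-4.12) and Mrpl52 (-3.96), ahead of Mrps14. Mrps33 had 474 to 1313 normalized CPM in rRNA-poor and 38.3 to 285 in rRNA-rich libraries, where the 2 highest values were those of the shallow libraries.

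At the other end, Mrps2, a small subunit protein with a bacterial homologue (chr2:28468066-28471178, plus strand), had 11.7 to 16.1 normalized CPM in the rRNA-poor libraries. Its level was 47.8 to 89.5 in the 7 deeper rRNA-rich libraries, and 0 and 5.92 in the shallow ones. The difference over all libraries was 1.23 (SE 0.83, adjusted p = 0.311), and without the shallow libraries it was 1.97 (SE 0.22, adjusted p = 5.95e-06), a 3.91-fold higher level in rRNA-rich libraries. Mrpl10, which anchors the stalk that recruits translation factors, had 23.9 to 39.0 normalized CPM in rRNA-poor libraries. Among the rRNA-rich libraries it had 76.6 to 110 in the 7 deeper ones, and 34.7 and 0 in the shallow ones. Its difference was 0.97 (SE 0.72, adjusted p = 0.356) over all libraries and 1.29 (SE 0.18, adjusted p = 4.59e-05) without the shallow ones. Mrpl37, particular to mitochondrial ribosomes, had overlapping kinds, with 56.7 to 92.4 normalized CPM in rRNA-poor and 49.5 to 204 in rRNA-rich libraries (-0.00, SE 0.31, adjusted p = 0.999). So in the 7 deeper rRNA-rich libraries Mrps2 and Mrpl10 lay above all rRNA-poor libraries, and in the shallow ones they did not. The share of all genes with this order is not given here. Without the shallow libraries 2 of the 78 members were higher at an adjusted p under 0.05, beside 12.9% of all genes tested. The differences of Mrps2 and Mrpl10 were positive under TMM and under DESeq2's size factors (1.05 and 0.84 over all libraries).

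Members with well-known roles in translation were spread along this range. Mrps12, at the decoding centre, had 81.0 to 127 normalized CPM in rRNA-poor libraries and 5.31 to 19.0 in 8 of the rRNA-rich ones, with 238 in IVG-NT day 6 replicate 2 (-2.95, SE 0.69, adjusted p = 0.00789). Mrps7, of the head of the small subunit, had a 5.97-fold lower level in rRNA-rich libraries, and Mrpl12, the stalk protein that contacts translation factors, a 3.36-fold lower one (adjusted p = 0.0138 and 0.047). Mrpl58, a hydrolase that frees peptides from stalled ribosomes, was 9.40-fold lower (adjusted p = 0.000312), and Mrpl4 2.03-fold lower (adjusted p = 0.0236). Mrps36, on the same list though now counted outside the ribosome, was 6.93-fold lower (adjusted p = 0.00134). The others on the list fixed by role did not pass over all libraries, and Mrps22 and Mrpl11 passed without the 2 shallow ones. Mrps22, whose human counterpart is mutated in a form of ovarian insufficiency, had 133 to 264 normalized CPM in rRNA-poor and 8.35 to 152 in rRNA-rich libraries (-0.99, SE 0.46, adjusted p = 0.134); without the shallow libraries its difference was -0.83 (adjusted p = 0.00651). Mrpl3, next to the peptidyl transferase centre, had a difference of -0.89 (SE 0.58, adjusted p = 0.292), and Mrpl11, of the stalk base, one of -1.50 (SE 0.81, adjusted p = 0.201). Mrpl11 had 0 and 78.7 normalized CPM in the shallow libraries, and without them its difference was -1.87 (adjusted p = 1.83e-05). Mrpl44, which has an RNase III-like fold, had -0.66 (SE 1.15, adjusted p = 0.719) over all libraries and 0.42 (adjusted p = 0.18) without the shallow ones.

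**Figure D3:**
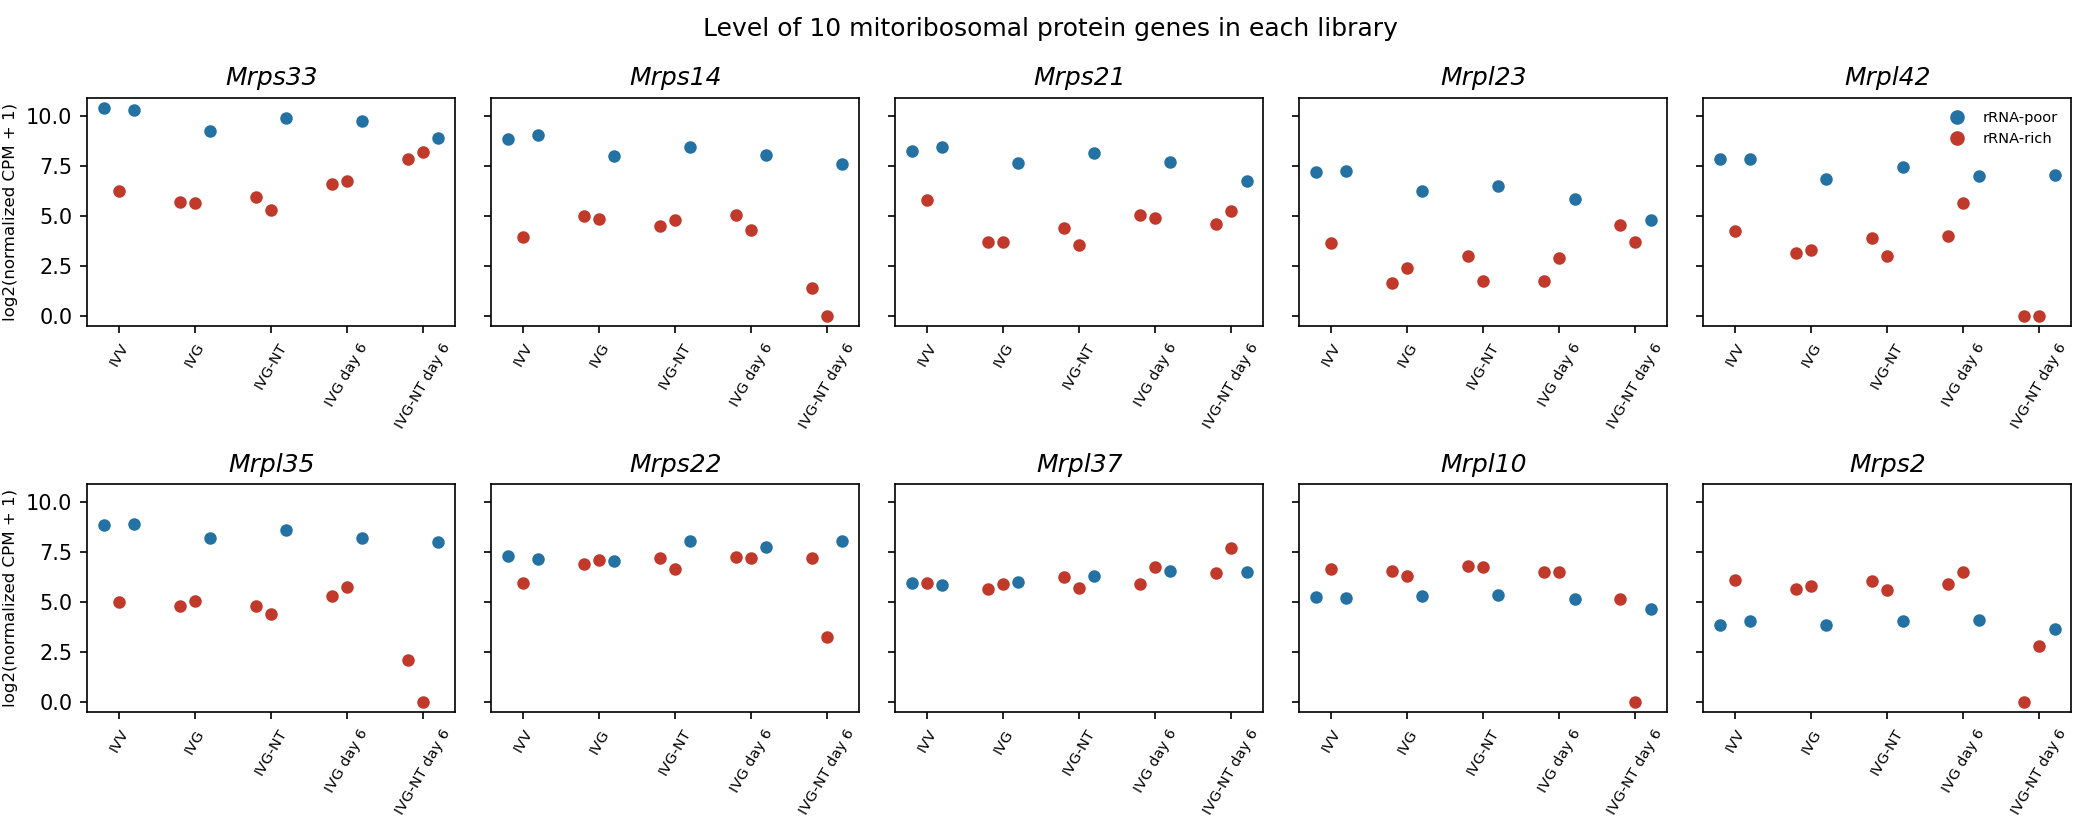
Level of 10 members, chosen after their values were seen, as log2 of normalized CPM + 1 in each library by group, with blue points for rRNA-poor and red points for rRNA-rich libraries. In the first 6 panels blue lies above red in every group, in the Mrps22 and Mrpl37 panels the colours mix, and for Mrpl10 and Mrps2 red lies above blue outside the shallow IVG-NT day 6 libraries.

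The promoters of the members were searched for known motifs. RefSeq promoter windows (GRCm38.p6, 250 bases before to 50 after the start) were at hand for 69 of the 78 genes, with the first listed start used where a gene has several. Both strands were searched for 13 spellings of 9 motifs, and the spellings of 1 motif overlap each other. CCGGAAG, bound by ETS factors such as GABP, was in 25 of 69 members (36.2%) and in 9.12% of 27025 genes with a window. The NRF1 motif, with 1 free base, was in 13 (18.8%, beside 4.78%), and AAGATGGC, the YY1 motif, in 12 (17.4%, beside 2.88%). At least 1 of these 3 was in 42 members (60.9%) and in 15.2% of all genes. TATAAA was in 4 (5.80%, beside 14.2%), CCAAT in 27 (39.1%, beside 37.9%), GGGCGG in 34 (49.3%, beside 35.9%), the ZNF143 motif in 5 (7.25%, beside 1.98%), CACGTG in 5 (7.25%, beside 7.24%) and TGACGTCA in 2 (2.90%, beside 1.88%). Longer forms of the ETS motif, CCGGAAGT and CCGGAAGCG, were in 15.9% and 8.70% of members (4% and 1.20% of genes), and the NRF1 forms, strict and as CGCATGCGC, in 4.35% and 10.1% (0.977% and 1.81%). The median difference between kinds was -2.64 in the members with CCGGAAG and -2.38 in those without. For the NRF1 motif the medians were -1.75 with and -2.58 without, and for AAGATGGC -2.77 with and -2.40 without. These medians were not tested against each other. A match is a description of letters and not of binding.

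The 120 bases before the start are shown for some of the members named above, with CCGGAAG and NRF1 motif matches on either strand in capitals. Mrpl34, Mrps22, Mrps21 and Mrpl12 hold a match, and Mrps14, with the most negative difference between kinds over all libraries, and Mrps2 and Mrpl10, with the 2 positive ones, hold none in these bases. Of the members not shown, Mrpl52 and Mrpl53 hold CCGGAAG there, and Mrpl35 and Mrpl42 hold neither motif.
Mrpl34 (chr8:71464806-71464925, plus strand): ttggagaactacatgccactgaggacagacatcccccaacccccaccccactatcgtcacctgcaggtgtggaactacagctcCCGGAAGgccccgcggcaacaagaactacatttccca
Mrps22 (chr9:98601680-98601799, minus strand): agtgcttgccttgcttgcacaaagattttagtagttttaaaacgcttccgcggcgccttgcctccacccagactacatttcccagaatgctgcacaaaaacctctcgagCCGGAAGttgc
Mrps21 (chr3:95871515-95871634, minus strand): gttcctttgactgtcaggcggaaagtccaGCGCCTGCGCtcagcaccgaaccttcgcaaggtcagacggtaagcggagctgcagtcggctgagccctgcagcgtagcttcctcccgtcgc
Mrpl12 (chr11:120484517-120484636, plus strand): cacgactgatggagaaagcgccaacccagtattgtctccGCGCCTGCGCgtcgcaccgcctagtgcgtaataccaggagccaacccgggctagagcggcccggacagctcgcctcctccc
Mrps14 (chr1:160195095-160195214, plus strand): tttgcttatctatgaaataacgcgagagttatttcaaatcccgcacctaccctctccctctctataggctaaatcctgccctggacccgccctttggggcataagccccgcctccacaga
Mrps2 (chr2:28467946-28468065, plus strand): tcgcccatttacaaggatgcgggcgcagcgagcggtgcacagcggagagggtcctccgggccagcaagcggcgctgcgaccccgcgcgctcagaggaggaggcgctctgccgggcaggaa
Mrpl10 (chr11:97041462-97041581, plus strand): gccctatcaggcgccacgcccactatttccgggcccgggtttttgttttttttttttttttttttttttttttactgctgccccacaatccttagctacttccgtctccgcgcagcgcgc

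The difference between kinds went with transcript length. Among the members, the Spearman correlation of the log2 difference with the length of the longest protein-coding transcript was 0.475 (n = 78 genes), and among 15473 protein-coding genes it was 0.518. These are correlations across genes measured in the same libraries, not across replicates. The members are short, with a median of 1328 bases against 3038 over all protein-coding genes tested. For 24 members under 1 kb the median difference was -3.30, beside -3.01 for all 1001 protein-coding genes of that length. For 29 members of 1 to 2 kb it was -2.24, beside -1.42. For 16 members of 2 to 4 kb it was -2.06, beside -0.17, and for 9 members over 4 kb -1.54, beside 0.80. The long members were thus lower in rRNA-rich libraries where long genes as a whole were higher, though the longest annotated transcript need not be the one an oocyte makes. GC content of the transcript had a correlation of -0.09 with the difference among members. The part of length in the difference between kinds was not tested.

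**Figure D4:**
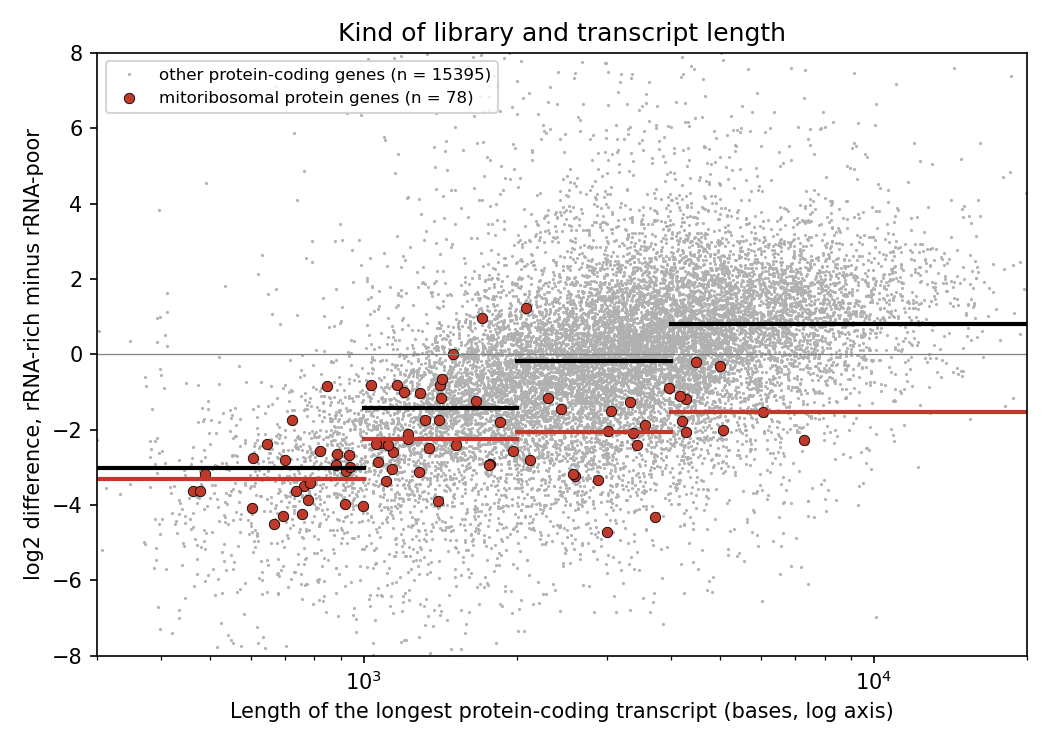
log2 difference between rRNA-rich and rRNA-poor libraries against the length of the longest protein-coding transcript (log axis), for the 78 members (red) and other protein-coding genes (grey; values beyond the axis limits are not drawn). Horizontal lines are medians in 4 length classes for members (red) and all protein-coding genes (black): they lie close together under 1 kb, and over 4 kb they lie at -1.54 and 0.80.

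Cytosolic ribosomal protein genes and nuclear genes of oxidative phosphorylation (OXPHOS) were lower in rRNA-rich libraries as well. The 85 cytosolic genes had a median difference between kinds of -2.13, with 59 lower at the threshold, and the 82 OXPHOS genes tested had a median of -3.19 with 68 lower. Of all genes tested, 15.3% were lower. The mitoribosomal median of -2.41 lay between these, and the lists were not tested against each other. The 5 mitoribosome subunits with other symbols were mixed. Aurkaip1 was 9.02-fold lower in rRNA-rich libraries (adjusted p = 2.95e-05), Chchd1 9.20-fold lower (adjusted p = 0.00607) and Dap3 1.96-fold lower (adjusted p = 0.024), while Ptcd3 (0.04) and Gadd45gip1 (-0.22) did not pass. The RNAs these proteins bind, read from the mitochondrial genome, went in opposite directions. The small subunit rRNA, mt-Rnr1, had 369 to 2038 normalized CPM in rRNA-poor and 78.3 to 536 in rRNA-rich libraries (-1.88, SE 0.40, adjusted p = 0.00449). The large subunit rRNA, mt-Rnr2, had 1390 to 4199 in rRNA-poor and 6991 to 11320 in rRNA-rich libraries (1.98, SE 0.17, adjusted p = 5.02e-06).

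The factors that serve the ribosome had smaller median differences. Of 14 translation factors, 2 were lower at the threshold (the release factor Mtrf1 and the RNA-binding Slirp) and 0 higher, with a median of -1.14. Of 22 assembly factors, 2 were lower (Malsu1 and Mterf4) and 1 higher (the methyltransferase Tfb1m), with a median of -0.60. Of 20 aminoacyl-tRNA synthetases and amidotransferase subunits, 1 was lower (Fars2) and 1 higher (Lars2), with a median of -0.07. Over all genes tested, 15.3% were lower and 8.41% higher, and none of these lists was above either share. Lars2 had 10.8 to 8732 normalized CPM, with a median of 28.2, in rRNA-rich libraries and 1.18 to 5.38 in rRNA-poor ones. The summed level of the synthetase list was 5584 in IVG day 6 replicate 2 and 9076 in the shallow IVG-NT day 6 replicate 2. In the other rRNA-rich libraries it was 159 to 282. In the 6 comparisons between groups, 0 genes of these 3 lists and 0 of the 5 other subunits had an adjusted p under 0.05 by edgeR, and by the DEG rule given below 0 were called in the 3 comparisons at day 10. On day 6, IVG-NT against IVG, 2 translation factors were lower, and 1 synthetase was higher and 2 lower, in a comparison with 11.6% of all genes tested called. From day 6 to day 10, 1 assembly factor and 1 synthetase were lower in IVG (2.90% of all genes called), and with NT-4 1 translation factor was higher and 1 assembly factor and 2 synthetases were lower (12.7%).

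In the fit of the 5 group means over all libraries, no member passed a threshold between the groups at day 10. A differentially expressed gene (DEG) is here one with a log2 fold change beyond 1 in size and an unadjusted P under 0.05 in the fit of the 5 group means. Between IVG and IVV, 0 of 78 members were DEGs, beside 2.76% of all genes tested, and between IVG-NT and IVV 0, beside 3.29%. Between IVG-NT and IVG there were 0 as well, beside 1.24%. In each of the 3 comparisons 0 members had an unadjusted P under 0.05 by edgeR or by DESeq2. At an adjusted p under 0.05, 0 members passed in any of the 6 comparisons by edgeR over all libraries, and 0% of all genes tested did. The median fold change of the members, on the log2 scale, was -0.89 for IVG minus IVV, with 70 of 78 negative, where all genes tested had -0.20. It was -0.56 for IVG-NT minus IVV (all genes -0.19, 65 negative) and 0.27 for IVG-NT minus IVG (all genes 0.01, 12 negative). The last turned sign with single libraries, to -1.34 without IVG-NT replicate 3 and to -0.08 without IVG replicate 1 or 2. These comparisons share the IVV or IVG libraries. The groups also differ in how many rRNA-poor libraries they have, 2 of 3 in IVV and 1 of 3 in each in vitro group. When kind was added as a covariate, the 3 medians were -0.15, -0.12 and 0.16, and the members called were 1 (beside 3.83% of all genes), 0 (4.31%) and 0 (2.03%). With replicate number as a block instead, 6 members (7.69%) were called for IVG against IVV, all lower, beside 2.54% of all genes. For IVG-NT against IVV and against IVG 0 were called, beside 2.65% and 0.747%.

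The members nearest to the threshold at day 10 had groups that overlapped. For IVG against IVV these were Mrps33 and Mrps31 on the lower side and Mrpl45 and Mrpl9 on the higher side. Mrps33 had 1313, 1238 and 74.6 normalized CPM in IVV and 51.1, 48.9 and 604 in IVG, so that the groups overlapped (log2 fold change -1.90, SE 1.33). Mrps31, a small subunit protein particular to mitochondria, had 235, 216 and 26.2 in IVV and 28.0, 25.6 and 114 in IVG (-1.51, SE 1.12). Mrpl45, which ties the ribosome to the inner membrane, had 43.0, 45.6 and 11.5 in IVV and 44.4, 49.5 and 58.4 in IVG (0.61, SE 1.22), and Mrpl9 had a log2 fold change of 0.29 (SE 0.90). Within each kind the IVV values lay above those of IVG for Mrps33 and below them for Mrpl45. For Mrps31 they overlapped in the rRNA-rich kind. For IVG-NT against IVV the nearest members were Mrpl48 (-1.20, SE 0.94), Mrpl23, a protein of the tunnel exit (-1.63, SE 1.5), Mrps22 (0.49, SE 0.84) and Mrpl10 (0.56, SE 1.14). For IVG-NT against IVG they were Mrpl2 (0.68, SE 0.87), Mrpl22 (0.69, SE 0.91), Mrpl19 (-1.07, SE 1.77) and Mrps11 (-0.52, SE 1.49). Each had an adjusted p of 1 by edgeR.

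Within the rRNA-poor kind, more members had their highest levels in vivo than their lowest. In 27 of the 78 genes (34.6%) both rRNA-poor IVV libraries lay above all 4 rRNA-poor in vitro libraries, which held for 16.9% of all genes tested, and in 6 (7.69%) both lay below, beside 9.49%. Mrps21, the bacterial homologue of which is a small subunit protein, had 303 and 338 normalized CPM in the rRNA-poor IVV libraries and 196, 280, 202 and 105 in those of IVG, IVG-NT, IVG day 6 and IVG-NT day 6. These genes, Mrps21, Mrpl33 and Mrpl23, were chosen after their values were seen. In the rRNA-rich libraries Mrps21 had 53.2 in IVV and 10.5 to 36.2 in the in vitro groups. Its IVV level was thus above the in vitro levels within each kind. Mrpl33 had 159 and 182 against 40.9 to 96.5 in the rRNA-poor libraries, and 19.7 against 0 to 29.7 in the rRNA-rich ones, where IVG day 6 replicate 2 was higher than IVV. Mrpl23 had 142 and 148 against 26.4 to 88.1 in the rRNA-poor libraries, and 11.6 against 2.13 to 21.9 in the rRNA-rich ones, where the shallow libraries were highest.

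In the fit with kind as a covariate and without the shallow libraries, an alternative added after the data were seen, Mrps21 (-1.43, SE 0.36), Mrpl33 (-1.72, SE 0.49) and Mrpl23 (-1.43, SE 0.44) were DEGs between IVG and IVV and also between IVG-NT and IVV (-1.02, -1.56 and -1.01). Adjusted p by edgeR was 0.278 to 0.368 in the first and 0.463 to 0.481 in the second, so none passed that threshold. In all, 7 members were DEGs there between IVG and IVV, beside 7.70% of all genes tested, and 3 between IVG-NT and IVV, beside 7.73%. These are 8.97% and 3.85% of the members. The medians were -0.23 and -0.18, beside -0.20 and -0.25 over all genes.

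**Figure D5:**
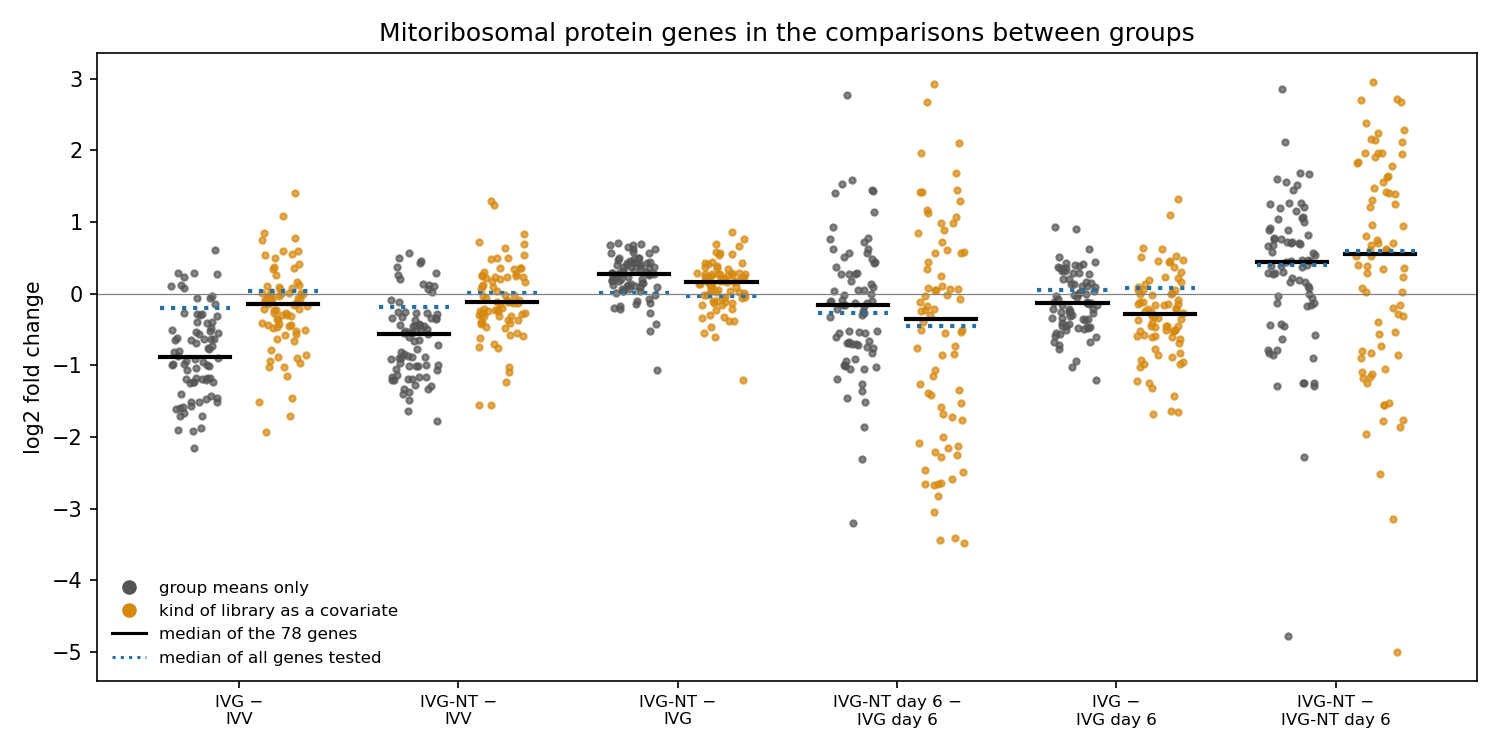
log2 fold change of the 78 members in 6 comparisons between groups, in the fit of group means (grey) and in the fit with kind as well (orange), with black lines at the members' medians and blue dotted lines at the medians of all genes tested. In the first 2 comparisons the grey median of -0.89 and -0.56 moves to -0.15 and -0.12 with the covariate, and in the comparisons with IVG-NT day 6 the points spread widest.

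On day 6, 2 members were DEGs between IVG-NT and IVG, both lower with NT-4, beside 11.6% of all genes tested, and 2 had an unadjusted P under 0.05. Mrps2 had 0, 5.92 and 11.7 normalized CPM in IVG-NT day 6 and 58.5, 89.5 and 16.1 in IVG day 6 (-3.20, SE 1.31, adjusted p = 0.393 by edgeR). Mrps6, a small subunit protein with a bacterial homologue, had 1.81, 2.09 and 23.2 in IVG-NT day 6 and 32.9, 73.1 and 29.5 in IVG day 6 (-2.31, SE 1.01, adjusted p = 0.407). In both genes the low values are those of the 2 shallow libraries, and in both no value of IVG-NT day 6 reached the lowest of IVG day 6. Without the shallow libraries neither was called. On the higher side, Mrpl16 (1.44, SE 0.79) and Mrpl9 (1.44, SE 0.92) came nearest; Mrpl9 had 454 normalized CPM in IVG-NT day 6 replicate 3, where 109 was the IVG day 6 value of the same kind. The members' median was -0.16 (all genes -0.27) under TMM and 0.08 under DESeq2's size factors, a scaling that moved the median of all genes by 0.27, so no direction is given for the members as a whole. It ran from -1.74 without IVG-NT day 6 replicate 3 to 0.70 without IVG day 6 replicate 3. In the former 22 members (28.2%) were called, all lower, beside 29.1% of all genes called. Of these, 14 had an adjusted p under 0.05 by edgeR, a threshold for which the share of all genes is not given here. Of the granulosa cell markers 3 of 10 tested were lower DEGs with NT-4 (summed level 40.7 to 160 normalized CPM, against 47.9 to 162), and their part in the members' values was not tested. With kind as a covariate 17 members were called, 13 of them lower, beside 15.8% of all genes. With the shallow libraries also left out, 11 were called, 7 of them lower, beside 6.11%, from 1 remaining library of IVG-NT day 6 whose spread is taken to be that of the other groups.

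From day 6 to day 10, 0 members were DEGs in IVG, beside 2.90% of all genes tested, and 0 had an unadjusted P under 0.05 by edgeR or DESeq2. The median was -0.13, and all genes had 0.05. It ran from -1.38 without IVG replicate 3 to 0.68 without IVG day 6 replicate 3. The members nearest to the threshold were Mrps6 (-1.20, SE 0.98) and Mrpl37 (-0.60, SE 0.61) on the lower side at day 10, and Mrpl9 (0.93, SE 0.91) and Mrpl30 (0.91, SE 1.53) on the higher side, each with an adjusted p of 1. Mrpl9 had 126, 127 and 145 normalized CPM at day 10 and 93.2, 7.46 and 109 at day 6, without overlap. Mrpl37 had 49.5, 57.6 and 61.6 normalized CPM at day 10 and 59.0, 105 and 92.4 at day 6, so the groups overlapped. With kind as a covariate 0 members were called, beside 4.86%, and with the shallow libraries left out as well 8 were, 7 of them lower at day 10, beside 7.34%. Mrpl33, Mrpl41 and Mrpl42 were lower in IVG there against day 6 as well as against IVV, in comparisons that share the IVG libraries.

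With NT-4, 2 members were DEGs between day 10 and day 6, beside 12.7% of all genes tested. Mrps2 was higher at day 10, with 65.4, 47.8 and 15.8 normalized CPM against 0, 5.92 and 11.7 at day 6 (2.86, SE 1.29, adjusted p = 0.38). Mrpl19 was lower, with 0, 0.68 and 2.17 against 0, 75.2 and 3.82 (-4.78, SE 2.05, adjusted p = 0.366), a difference that rests on IVG-NT day 6 replicate 2. Mrpl10 (2.12, SE 1.19), with 110, 105 and 39.0 against 34.7, 0 and 23.9, and Mrps26 (-2.28, SE 1.39) followed. DESeq2's Wald test called 5 members here, beside 13.0% of all genes tested, and 1 of them, Mrpl19, had an adjusted p under 0.05 (0.0439), beside 4.46%. The median was 0.44, beside 0.40 over all genes, under TMM, and 0.19, beside 0.04, under DESeq2's size factors. No direction is given for the members as a whole. With kind as a covariate 11 members were called, beside 16.9%. The median turned to -1.29 without IVG-NT replicate 3 and reached 2.0 without IVG-NT day 6 replicate 3, where 25 members (32.1%) were called, beside 30.8% of all genes called. Of these, 14 had an adjusted p under 0.05 by edgeR, a threshold for which the share of all genes is not given here. Of the granulosa cell markers 5 of 10 tested were higher DEGs at day 10 (summed level 135 to 301 normalized CPM, against 40.7 to 160 at day 6), and their part in the members' values was not tested. In the test of whether the effect of NT-4 differed between day 10 and day 6, 0 members and 0% of all genes had an adjusted p under 0.05, and 0 members had an unadjusted P under 0.05, by edgeR and by DESeq2.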

How the data were processed

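The authors amplified RNA of pooled oocytes by SMART-Seq2, sequenced paired ends, removed adaptors and low-quality bases and aligned with HISAT2 to mm10. The values used are the deposited raw counts per Ensembl gene, which the authors did not normalize; how genes were counted, the annotation release and strand are not given in the sources used here. Gene types, symbols and exon lengths came from GENCODE annotation of GRCm38, and promoters from RefSeq. A series-wide table of the same counts was not used. PCR copies were not marked by molecular identifiers, so limits set by depth cover counting error only.

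The genes, the other gene lists, the 2 kinds of library and the tests were chosen with earlier results of these data known. Counts were tested with edgeR 4.0.16 (R 4.3.3) by the quasi-likelihood test, after filterByExpr with a minimum count of 10 and TMM scaling, on all 15 libraries and 21009 genes, with Benjamini-Hochberg adjustment over all of them. Group comparisons used group means, and the difference between kinds a fit with group and kind. DESeq2 1.42.0 (Wald test and size factors), no filter, kind as a covariate, a replicate block, fits of the compared groups only and leaving out each library were alternatives. Scripts were tested on simulated data. Genes named by rule are, for each group comparison, the 2 members with the smallest P on each side, the 3 highest and 3 lowest by FPKM, the 3 at each end of the difference between kinds, and 11 chosen by role. Others, such as Mrpl33, Mrpl41, Mrpl52, Mrpl53, Mrpl54, Mrps25 and Mrps34, fall outside this rule. They were picked by their values or exon overlap. Same-numbered libraries deviated together between IVG-NT and IVG (r = 0.37, 0.41 and 0.73) and between IVG and IVG day 6 (0.23, 0.15 and 0.54). They did so less between IVG-NT day 6 and IVG day 6 (0.08, 0.11 and 0.33) and between IVG-NT and IVG-NT day 6 (0.08, 0.07 and 0.26). Pairing and kind cannot be told apart in these values, as replicate 3 is the rRNA-poor library in each of these groups. The paper states that the 3 samples of a group came from 3 repeated experiments, with culture groups run in parallel. The labels do not say which libraries share an experiment. The main comparisons were unpaired, and replicate number as a block was an alternative.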

Additional observations from a re-analysis of the deposited data

How the results depend on the processing

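Counts of members called DEG are given here with the share of all genes called under the same setting. With the replicate block, 6 members were called for IVG against IVV (all lower, 2.54%) and 8 on day 6 for IVG-NT against IVG (all lower, 7.32%). For IVG-NT between days 5 were called (8.46%). The block changed no call for IVG-NT against IVG at day 10 or for IVG between days. It turned Mrpl10 for IVG-NT against IVV to -0.00552. Kind as a covariate gave 1 for IVG against IVV (3.83%), 17 on day 6 (15.8%) and 11 for IVG-NT between days (16.9%). Kind with the shallow libraries left out, chosen after seeing the data, gave 7 (7.70%) and 3 (7.73%) for IVG and IVG-NT against IVV, 11 on day 6 (6.11%) and 8 for IVG between days (7.34%). Leaving out the shallow libraries alone gave 4 on day 6 (2.70%). No filter gave 1 for IVG against IVV (4.49%) and 1 on day 6 (11%). Fits of the 2 groups alone gave 0 on day 6 (3.06%) and 0 for IVG-NT between days (4.51%). The rRNA-rich libraries alone gave 21 on day 6 (18.1%) and 21 for IVG-NT between days (19.5%), and Mrps31 at 0.0538 for IVG against IVV. DESeq2's Wald test gave 5 for IVG-NT between days (13.0%). DESeq2's size factors moved the median of all genes by -0.361 to 0.273.

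Leaving out 1 library gave 0 to 8 members called for IVG against IVV (8 without IVG replicate 3; 4.56%), 0 to 8 for IVG-NT against IVV (8 without IVG-NT replicate 3; 4.77%; median -2.20 to -0.273), 0 to 1 for IVG-NT against IVG (1 without IVG replicate 3; 1.09%; median -1.34 to 1.35), 0 to 22 on day 6 (22 without IVG-NT day 6 replicate 3, 29.1%, 1 without its replicate 2, 10.1%, and 0 without IVG day 6 replicate 2, 7.47%; median -1.74 to 0.696), 0 for IVG between days (median -1.38 to 0.682) and 0 to 25 for IVG-NT between days (25 without IVG-NT day 6 replicate 3, 30.8%, 1 without its replicate 1 or 2, 10.4% and 11.2%, 4 without IVG-NT replicate 3, 11.2%, and 0 without its replicate 1 or 2, 7.10% and 7.31%; median -1.29 to 2.0). Without IVG-NT day 6 replicate 3, 14 members had an adjusted p under 0.05 by edgeR on day 6 and 14 for IVG-NT between days. The rRNA-rich libraries alone gave 1 for IVG-NT between days. For these fits the share of all genes at that threshold is not given. Under the other edgeR alternatives 0 members had an adjusted p under 0.05 in any group comparison. The left-out replicates 3 are rRNA-poor. The median for IVG against IVV ranged from -2.11 to -0.536. Between kinds 33 to 63 members passed and the median ranged from -2.62 to -2.32. Single genes that changed sign were Mrpl9 (-0.0131 to 0.471 for IVG against IVV, and -0.282 to 1.96 on day 6), Mrpl22 (-0.239 to 2.02) and Mrps11 (-2.33 to 1.21) for IVG-NT against IVG, Mrpl30 (-0.543 to 3.10) for IVG between days and Mrpl37 (-0.206 to 0.0619) between kinds. The causes were not tested. The depth of the shallow libraries limits the day 6 comparisons.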
